A study of Mus musculus with 16 samples.

Results

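The interaction of 2 drugs was measured in tumor RNA of mice carrying MC38 liver metastases. The measure was the factorial contrast combination minus SB525334 minus KN046 plus control, computed for every gene from all 16 of the 16 samples, 4 in each group. It is given on the log2 scale, where 0 means that the log2 effects of the single drugs add up in the combination. A value above 0 means that the combination was higher than that sum and a value below 0 that it was lower. The same number is the difference between the SB525334 effect with KN046 and the SB525334 effect without it.

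The samples were tumor tissue from male wild-type C57BL/6 mice, 6 weeks old when MC38 cells, a mouse colon carcinoma line, were injected into the spleen to seed the liver. The control group received PBS. The SB525334 group received an inhibitor of the TGF-β type I receptor (ALK5) by gavage every day at 20 mg/kg, the KN046 group a bispecific antibody against PD-L1 and CTLA-4 by intraperitoneal injection at 10 mg/kg, given 2 times a week, and the combination group both drugs. All groups share 1 sex, 1 strain, 1 cell line and 1 route of seeding, and every value below is of that model. The labels do not say that each sample came from its own mouse, and p-values then measure the spread between these samples.

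TGF-β is a secreted cytokine that restrains cytotoxic T cells and drives fibroblasts to lay down matrix. PD-L1 and CTLA-4 are checkpoint proteins that damp T cell activation. Interferon-γ, released by activated T and NK cells, induces guanylate-binding proteins, the immunoproteasome, MHC class I and the chemokines CXCL9 and CXCL10. Hepatocytes, the main cell type of the liver around such metastases, secrete albumin, coagulation factors, complement and acute phase proteins.

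Total counts per sample lay between 18368994 and 23877131, and 13968 of the 21959 genes listed were tested. Hepatocyte markers set the SB525334 and combination groups apart from the controls. Alb, the albumin gene, lay at 7843 to 8414 in the controls in CPM (read counts scaled to library size), 129 to 874 with SB525334, 5742 to 11060.3 with KN046 and 7.07 to 11.6 in the combination. Hnf4a, a transcription factor of hepatocytes, had 0 counts in 3 of 4 combination samples, against 77.8 to 82.7 CPM in the controls. In bulk tissue, fewer cells of a type and less RNA per cell cannot be told apart. Control samples 1 and 2, and control samples 3 and 4, resembled each other more than any other samples of 1 group did, but differed by more than counting noise and were counted as 4. The labels do not say whether each pair came from separate tumors, and if it did not, the number of controls is 2. Combination sample 4 carried far more neutrophil RNA than the other 3 combination samples, so that the main values resting on it are given with and without it.

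The interaction passed an adjusted p of 0.05 (edgeR quasi-likelihood test with Benjamini-Hochberg adjustment) in 598 genes, 4.28% of those tested. It was above 0 in 242 genes (1.73%) and below 0 in 356 (2.55%), while the median over all genes tested was 0.01. The 2 directions had different patterns. In genes with a positive interaction, the median log2 difference from control was -0.65 after SB525334, -1.13 after KN046 and 0.02 after both. The median over all genes tested was also near control after both drugs, at 0.01. Genes with a negative interaction were lower with SB525334, near control with KN046 and far lower with both, with medians of -3.35, -0.20 and -8.29. These medians come from the samples that define the interaction and describe it rather than test it.

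**Figure D1:**
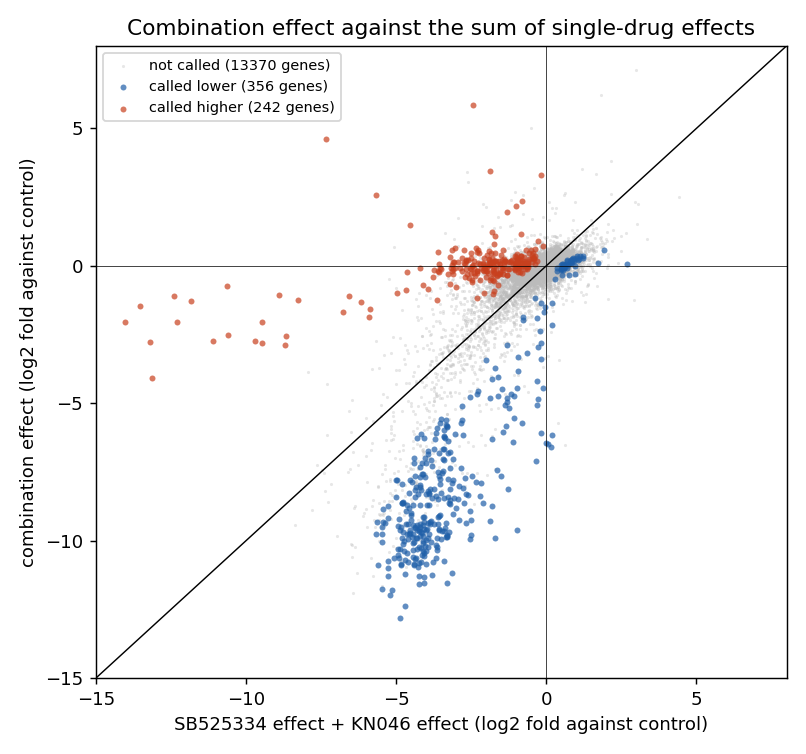
Each point is 1 of the 13968 genes tested, with the sum of the 2 single-drug effects on the horizontal axis and the effect of the combination on the vertical axis, both as log2 fold against control. On the black diagonal the log2 effects add. The 242 genes called higher (red) lie above the diagonal, most of them near 0 on the vertical axis, and the 356 called lower (blue) lie below it, most of them under -5.

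The plot of the combination effect against the sum of single-drug effects shows both clouds. The contrast that picked the genes subtracts both single-drug levels and adds the control and combination levels. The shares below come from the same samples and describe that choice rather than test it. In 229 of the 242 genes with a positive interaction, both single-drug estimates were below 0. KN046 alone was called lower than control in 152 of them, against 2.40% of all genes tested, SB525334 alone in 61, against 9.22%, and each of the drugs in 32. SB525334 alone was called higher than control in 0 of them, against 0.394%. The combination was not called different from control in 213 of them (88.0%, against 88.9% of all genes tested) and was within 2-fold of it in 206 (85.1%, against 89.0%). It was called higher than KN046 alone in 187, against 9.89% of all genes tested, and higher than SB525334 alone in 37, against 0.544%. In 17 of the 242 genes the combination was called higher than control, against 1.37%. In 0 genes with a positive interaction was the combination effect of the same sign as the sum and larger than it. In 118 the combination effect was smaller than the sum but of the same sign, and in 124 it had the opposite sign.

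The 242 and 356 calls moved with the samples. Without combination sample 4 they were 128 and 249, of which 127 and 244 were among the calls from all samples. The positive calls were 157 without control sample 1, 159 without control sample 2, 158 without SB525334 sample 2 and 462 without KN046 sample 2. With each close control pair merged into 1 sample they were 93 and 205, 84 of the 115 named genes that were called passed, and Cirbp was among those lost (adjusted p = 0.0577, edgeR), and DESeq2 gave 401 and 550. No gene called in both fits changed sign under any of these settings.

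Interferon-γ response genes were the list with the largest share of positive interactions: 23 of 30 genes tested were called higher and none lower, with a median interaction of 2.52 on the log2 scale. Their median difference from control was -1.07 after SB525334, -1.55 after KN046 and -0.01 after both. KN046 alone was called lower than control in 17 and the combination higher than KN046 in 23, while the combination was called different from control in 0. At an unadjusted p under 0.05, edgeR gave 2 genes for that comparison and DESeq2 1 at an adjusted p of 0.05. The count of 23 was 13 without combination sample 4, 10 with control pairs merged and 8 without control samples 1 and 2.

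Gbp2, an interferon-inducible guanylate-binding GTPase, had CPM of 197, 207, 96.7 and 101 in the controls and 81.7, 65.5, 42 and 101 with SB525334. With KN046 it was at 21.7, 38.1, 19.3 and 56.9, and in the combination at 289, 84.8, 124 and 244. The KN046 samples lay below all others except SB525334 sample 3, and the combination samples overlapped the controls. The interaction was 3.50 ± 0.58 (log2, SE; adjusted p = 0.00159, edgeR). If the fold changes of the single drugs had multiplied, the combination mean would have been 16.4 CPM, and it was 186.

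Tgtp1 and Tgtp2, T cell-specific GTPases of the interferon-inducible family, had interactions of 4.43 ± 0.78 (adjusted p = 0.00258, edgeR) and 3.65 ± 0.71 (adjusted p = 0.00561, edgeR). They are near-identical copies whose reads could be split between them, so their separate values are uncertain. The type I interferon response list had 2 of 29 genes called higher and none lower, and 10 without KN046 sample 2. The 2 were Zbp1, a sensor of Z-form nucleic acids, and Herc6, an ISG15 ligase, with interactions of 2.45 ± 0.53 and 1.68 ± 0.47. Their adjusted p-values in edgeR were 0.0123 and 0.0499, and the call of Herc6 held in 3 of 16 fits that left out 1 sample. Whether the interferon-γ and type I lists differed was not tested. Bst2, which tethers budding virions and was taken from the dendritic cell list, had 1.04 ± 0.19 (adjusted p = 0.00339, edgeR).

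The promoters of 2 genes with positive interactions are printed to show the interferon regulatory factor motif, a pair of GAAA repeats 2 bases apart, searched on both strands. It was in 14.8% of the 223 promoters of genes called higher (186 of 242 symbols matched), in 2.62% of the 343 promoters of genes called lower (268 of 356 matched), in 3.22% of the promoters of all genes tested and in 3.44% of all 32851 promoters. Each sequence is from RefSeq on GRCm38.p6 and runs from 250 bases before to 50 bases after the gene's start, 5′ to 3′ on the gene's strand, with the motif or its reverse complement in capitals. A match is a description of these letters and not a shown binding site. Gbp2 is chr3:142620413-142620712, plus strand, with the first base of the match at -59 from the start. Serpinb9, an inhibitor of granzyme B, is chr13:33004291-33004590, plus strand, with the match at -46.
Gbp2: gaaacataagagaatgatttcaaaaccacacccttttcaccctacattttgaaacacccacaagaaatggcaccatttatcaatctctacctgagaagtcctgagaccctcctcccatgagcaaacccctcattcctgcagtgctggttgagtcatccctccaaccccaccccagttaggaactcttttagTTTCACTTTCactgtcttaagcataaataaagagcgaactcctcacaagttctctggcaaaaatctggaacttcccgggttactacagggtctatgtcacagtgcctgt
Serpinb9: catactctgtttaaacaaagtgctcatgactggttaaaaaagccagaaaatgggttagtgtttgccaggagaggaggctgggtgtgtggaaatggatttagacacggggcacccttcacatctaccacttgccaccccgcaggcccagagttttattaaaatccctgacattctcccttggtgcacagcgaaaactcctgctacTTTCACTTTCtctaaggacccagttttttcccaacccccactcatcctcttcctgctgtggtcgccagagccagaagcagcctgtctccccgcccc

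Serpinb9 itself was at 27.3, 29.8, 28.2 and 29.1 CPM in the controls and 28.8, 22.9, 21.3 and 26.4 with SB525334. It was at 14.3, 20.9, 14.9 and 16.4 with KN046 and 35.8, 34.4, 37.7 and 46.9 in the combination. Every combination sample lay above every other sample, and every KN046 sample lay below every SB525334 and control sample. The interaction was 1.42 ± 0.19 (adjusted p = 0.000253, edgeR). The gene with the lowest p among the positive interactions was Serpinb6b, another intracellular serpin, with 42, 38.8, 45.7 and 42.8 CPM in the controls, 29, 36.1, 34.3 and 30.4 with SB525334, 25.6, 30, 28.1 and 25.4 with KN046 and 49.7, 53.7, 54.7 and 54.6 in the combination. Both single-drug groups lay below the controls and the combination above them with no overlap. Its interaction was 1.35 ± 0.14 (adjusted p = 1.27e-05, edgeR), and the combination was called higher than control (log2 difference 0.33, adjusted p = 0.0338, edgeR).

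Antigen presentation genes had smaller interactions in the same direction. In the MHC class I presentation list, 11 of 22 genes tested were called higher and 0 lower, with a median interaction of 1.07, and the count was 7 without control samples 3 and 4. Psmb10, a catalytic subunit of the immunoproteasome, was at 72.6, 78.2, 89 and 86.4 CPM in the controls, 71.6, 70.5, 56 and 75.5 with SB525334, 20.7, 41, 35.4 and 40.2 with KN046 and 115, 87.2, 96.9 and 125 in the combination. KN046 samples lay below all others without overlap, and 3 of 4 combination samples lay above every control. Its interaction was 1.88 ± 0.25 (adjusted p = 0.000173, edgeR). Psmb9, another such subunit, had 1.87 ± 0.28 (adjusted p = 0.000551, edgeR) and Psme2, a proteasome activator subunit, 1.20 ± 0.18 (adjusted p = 0.000707, edgeR). In the MHC class II presentation list, 4 of 14 were called higher, and 0 to 7 with 1 sample left out. Among them was the peptide-loading chaperone gene H2-DMa, at 1.36 ± 0.36 (adjusted p = 0.0398, edgeR), a call that held in 5 of 16 fits that left out 1 sample.

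T cell genes followed the same course. Of 23 genes in the T cell list that were tested, 14 were called higher and none lower, with a median interaction of 2.18. Their median difference from control was -0.58 after SB525334, -1.41 after KN046 and 0.20 after both. KN046 alone was called lower in 10, and the combination was called higher than KN046 in 18. The summed CPM of the list was 114 to 131 in the controls, 79.1 to 113 with SB525334, 70.1 to 85.4 with KN046 and 101 to 188 in the combination. The count of 14 was 9 without combination sample 4, without combination sample 1, without control sample 2, or without SB525334 sample 2 or 3, and 8 without KN046 sample 3, with control pairs merged, or without control samples 1 and 2.

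Cd3g, a chain of the T cell receptor complex, was at 5.55, 6.53, 8.32 and 6.85 CPM in the controls and 5.42, 2.95, 2.75 and 4.87 with SB525334. It was at 1.23, 3.50, 0.950 and 1.87 with KN046 and 8.99, 6.07, 7.15 and 9.05 in the combination. The combination overlapped the controls and lay above both single-drug groups. The interaction was 2.81 ± 0.47 (adjusted p = 0.00163, edgeR). Cd8b1, a chain of the CD8 co-receptor, was at 3.41, 3.41, 4.92 and 4.08 CPM in the controls, 3.57, 1.35, 1.81 and 3.06 with SB525334, 0.586, 0.972, 0.559 and 1.51 with KN046 and 5.49, 3.20, 3.17 and 7.54 in the combination. Its KN046 samples lay below every control and every combination sample. The interaction was 3.10 ± 0.54 (adjusted p = 0.0024, edgeR), and that of Cd8a, the other chain, 1.95 ± 0.41 (adjusted p = 0.00916, edgeR). Bcl11b, a transcription factor of T cell identity, reached 3.60 ± 0.60 (adjusted p = 0.00153, edgeR) on levels of at most 2.72 CPM. Cd4, the co-receptor of helper T cells, did not pass, with 1.75 ± 0.62 (adjusted p = 0.143, edgeR).

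Genes of cell killing were called higher in 6 of 11 members of the cytotoxic effector list, 4 of 11 of the NK cell list and 2 of 10 of the granzyme and perforin list, with none lower. The NK cell count was 2 without combination sample 4. Gzmb, the granzyme B gene, had CPM of 9.75, 10.7, 9.79 and 11.1 in the controls, 8.27, 1.91, 4.73 and 6.16 with SB525334, 3.62, 3.60, 0.894 and 1.66 with KN046 and 16.8, 6.68, 12.8 and 28.8 in the combination. The KN046 samples were below every control and every combination sample, while the combination samples spread on both sides of the controls. The interaction was 3.70 ± 0.65 (adjusted p = 0.00251, edgeR). Prf1, the pore-forming perforin, had 2.80 ± 0.54 (adjusted p = 0.00511, edgeR). Nkg7, a cytotoxic granule protein, had 3.07 ± 0.45 (adjusted p = 0.000508, edgeR) and Tbx21, the T-bet transcription factor of type 1 lymphocytes, 2.86 ± 0.50 (adjusted p = 0.00237, edgeR). The natural killer receptor gene Klre1 had 3.40 ± 0.72 (adjusted p = 0.01, edgeR) with at most 1.47 CPM in any sample. All 10 tested members of the granzyme and perforin list had estimates above 0, with a median of 1.90, although 2 passed the test. The combination was called higher than control in 5 of these 10, against 1.37% of all genes tested. The summed CPM of the list was 22.6 to 26.2 in the controls, 7.05 to 22.3 with SB525334 and 7.32 to 18.5 with KN046. In the combination it was 32.1 to 64.4, above every other sample.

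**Figure D2:**
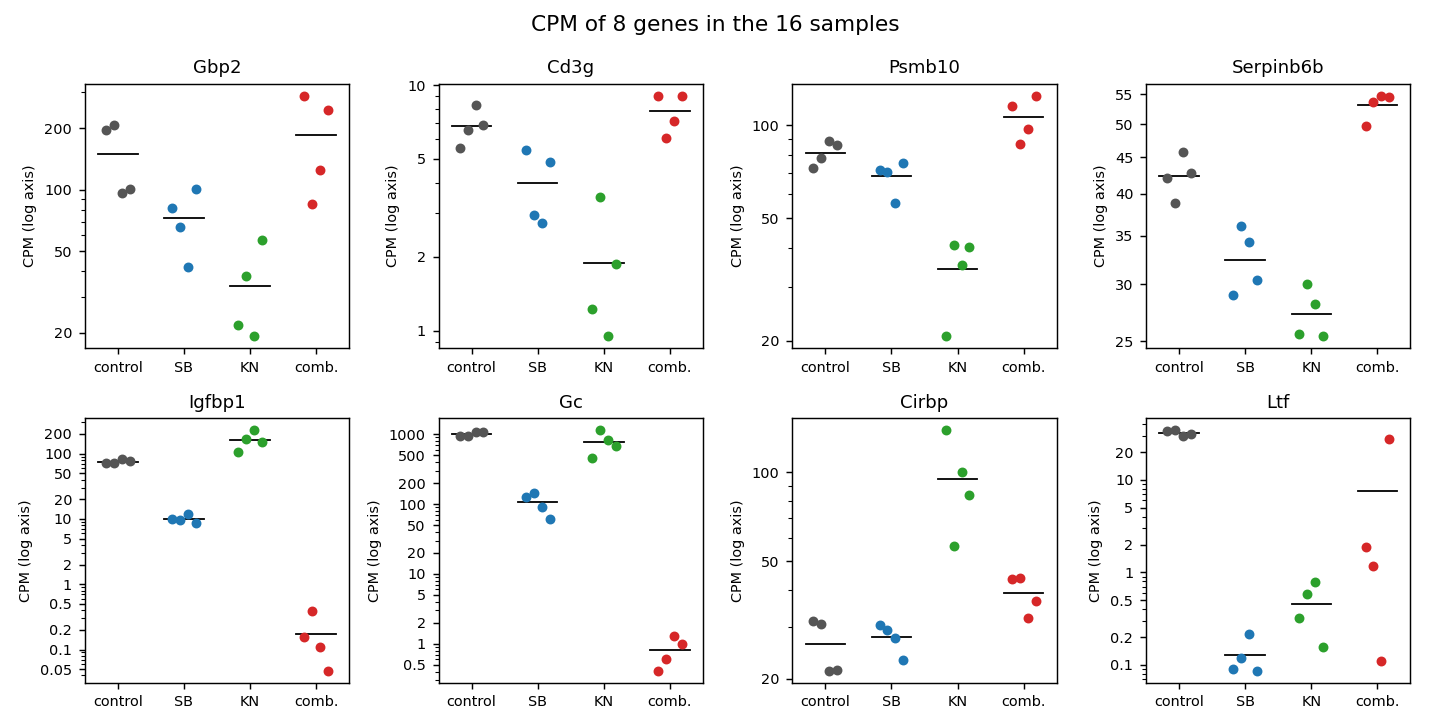
CPM of 8 genes on log axes, 1 point for each of the 16 samples, with a bar at the group mean (SB is SB525334, KN is KN046, comb. the combination). Gbp2, Cd3g, Psmb10 and Serpinb6b are lowest on average with KN046 and back at or above control in the combination, Igfbp1 and Gc are below 2 CPM only in the combination, Cirbp is highest with KN046, and the Ltf mean of the combination rests on 1 sample.

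The plot of 8 genes in the 16 samples shows these patterns next to those described further on. Among chemokines and their receptors, 10 of 39 genes tested were called higher and none lower, and 6 to 12 with 1 sample left out. Cxcl9, a ligand that draws CXCR3-bearing T cells, was at 81.9, 73.2, 46.1 and 46.4 CPM in the controls and 49, 30, 17.9 and 48.7 with SB525334. It was at 3.62, 17.4, 7.10 and 20.5 with KN046 and 86.3, 37.5, 57.3 and 93.1 in the combination. KN046 samples were below every control and every combination sample, and the SB525334 samples overlapped the other 3 groups. The interaction was 3.26 ± 0.61 (adjusted p = 0.00453, edgeR). Cxcl10, a ligand of the same receptor, had 2.24 ± 0.41 (adjusted p = 0.00316, edgeR) and Ccl5, a T cell-derived chemokine, 2.2 ± 0.44 (adjusted p = 0.00653, edgeR). Il1b, an inflammatory cytokine, had 3.40 ± 0.80 (adjusted p = 0.0203, edgeR), and its antagonist Il1rn 1.65 ± 0.42 (adjusted p = 0.0336, edgeR), among 4 of 36 interleukin and receptor genes called higher, 1 to 8 with 1 sample left out. The call of Il1rn held in 7 of 16 such fits and was lost without combination sample 4 (adjusted p = 0.0969, edgeR).

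The genes of the drug targets were examined next. Cd274, which encodes PD-L1, was at 16.3, 17.7, 9.43 and 10.7 CPM in the controls, 5.83, 4.14, 5.98 and 6.68 with SB525334, 7.25, 6.51, 6.37 and 8.37 with KN046 and 18.7, 6.62, 9.17 and 17.1 in the combination. Both single-drug groups lay below every control, and the combination samples spread from 1 value among the single-drug samples to 1 above the controls. The interaction was 2.12 ± 0.41 (adjusted p = 0.00561, edgeR). Ctla4 was at 3.63, 3.64, 1.47 and 0.941 CPM in the controls, 0.362, 0.478, 0.430 and 1.25 with SB525334, 4.80, 0.583, 2.07 and 1.45 with KN046 and 3.85, 1.77, 1.15 and 3.58 in the combination, and the 4 groups overlapped. Its interaction was 2.16 ± 0.86 and did not pass (adjusted p = 0.196, edgeR). Tgfbr1, the receptor gene of the SB525334 target, had 0.18 ± 0.21 (adjusted p = 0.709, edgeR). In the checkpoint and exhaustion list, 4 of 15 genes were called higher: Cd274, Pdcd1, which encodes PD-1, Tnfrsf9, a costimulatory receptor, and Tigit, an inhibitory receptor. Pdcd1 had 1.92 ± 0.38 (adjusted p = 0.00642, edgeR) and Tnfrsf9 1.62 ± 0.36 (adjusted p = 0.0132, edgeR).

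Mmp3, Ly6c1 and Cldn5 were among the 17 genes whose combination level was called higher than control. In the endothelial list the combination was called higher than control in 1 gene of 19, Cldn5, and lower in 7, and the summed CPM was 214 to 256 in the combination against 266 to 498 in the controls. Mmp3, a matrix metalloproteinase, was at 1.79, 1.37, 2.49 and 1.78 CPM in the controls, 0.678, 0.677, 0.818 and 1.51 with SB525334, 1.76, 1.60, 1.01 and 1.66 with KN046 and 4.67, 4.36, 6.66 and 13 in the combination. Every combination sample lay above every other sample. Its interaction was 3.25 ± 0.53 (adjusted p = 0.00136, edgeR), and the combination was called higher than control (log2 difference 1.95, adjusted p = 0.00077, edgeR). Ly6c1, a surface protein of endothelial and myeloid cells, was at 236, 242, 260.3 and 261 CPM in the controls, 272, 215, 204 and 238 with SB525334, 224, 175, 154 and 205 with KN046 and 377, 329.5, 334 and 442 in the combination, again with every combination sample highest. The interaction was 1.07 ± 0.18 (adjusted p = 0.0019, edgeR), and its combination level was above control (adjusted p = 0.00486, edgeR). Cldn5, a tight junction protein of endothelium, had 1.99 ± 0.45 (adjusted p = 0.0153, edgeR), with the combination at 5.65, 8.11, 6.93 and 7.64 CPM against 3.41, 3.74, 2.94 and 2.67 in the controls, a call that was lost with control pairs merged (adjusted p = 0.0599, edgeR). Nfasc, an adhesion molecule of neurons and glia, was lower with either drug than in the controls and had 3.70 ± 0.50 (adjusted p = 0.000247, edgeR), without a called difference between combination and control (adjusted p = 0.33, edgeR).

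The largest positive interactions belonged to neutrophil granule genes, and their size depended on 1 sample. In the neutrophil list 12 of 20 genes tested were called higher and none lower, and without combination sample 4 there were 8 called higher and 1 lower, Lcn2, an iron-binding neutrophil lipocalin (-4.36, adjusted p = 0.00343, edgeR). Lcn2 had -1.70 with all samples (adjusted p = 0.428, edgeR). The median interaction of the list was 4.24, or 3.70 with groups of at most 3 counts per sample set at 3 counts. Ngp, a neutrophil granule protein, was at 58.2, 63, 52.8 and 55.9 CPM in the controls, 0.181, 0.279, 0.215 and 0.129 with SB525334, 0.746, 0.535, 2.96 and 1.20 with KN046 and 2.31, 2.48, 0.0546 and 78.2 in the combination. Combination sample 4 was above every control, and the other 3 were 1 to 3 orders of magnitude below. The interaction of 12.06 ± 1.83 (adjusted p = 0.000733, edgeR) was 8.38 without that sample. Ltf, lactoferrin, fell from 33.6, 34.3, 29.7 and 31.1 CPM to 0.0904, 0.119, 0.215 and 0.0862 with SB525334 and 0.320, 0.583, 0.782 and 0.156 with KN046, and was at 1.90, 1.16, 0.109 and 27.5 in the combination. Its interaction was 11.97 ± 1.59 (adjusted p = 0.000208, edgeR), and 9.11 without sample 4. Multiplied single-drug fold changes would have given 0.00475 CPM for Ngp and 0.00183 CPM for Ltf. In the combination 3 counts correspond to 0.156 CPM, so a level that low would still give a positive interaction for either gene. Camp, an antimicrobial peptide, and Mpo, myeloperoxidase, had 11.30 ± 1.74 and 8.39 ± 1.24, and 7.88 and 6.29 without sample 4. Ngp, Ltf, Camp and Mpo still passed without it (adjusted p = 3.91e-05, 8.92e-06, 7.61e-05 and 0.00049, edgeR). S100a8, a subunit of calprotectin, went from 7.83 ± 1.59 to 5.0 and still passed (adjusted p = 0.0238, edgeR). S100a9, the other subunit, and Cd177, a neutrophil surface protein, went to 4.06 and 3.48 and no longer did (adjusted p = 0.06 and 0.0574, edgeR). The neutrophil receptor gene Csf3r was at 3.71 to 9.99 CPM in the combination and at 10.8 to 23.1 in the controls. In all 12 called members the combination stayed below the control mean on the log2 scale and above the sum of the single-drug effects.

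Combination sample 4 also carried the highest level of plasma cell RNA. Jchain, the joining chain of secreted antibodies, was at 12.7, 11.6, 5.07 and 3.55 CPM in the controls, 5.47, 2.11, 1.55 and 1.59 with SB525334, 0.480, 0.632, 0.559 and 2.65 with KN046 and 12.3, 8.33, 3.55 and 67.2 in the combination. Every KN046 sample lay below every control and combination sample, the controls overlapped the SB525334 and combination samples, and sample 4 stood above all others. The interaction was 6.02 ± 1.15 (adjusted p = 0.00477, edgeR), and 4.52 without that sample (adjusted p = 0.00795, edgeR). The B cell gene Cd79a was at 0.437 to 21.1 CPM in the combination, 0.558 to 1.52 CPM in the controls and at most 2.82 CPM in any other group. In the B and plasma cell list 1 of 15 genes tested was called higher, Jchain, and all 15 estimates were above 0. The summed CPM of a splenic stroma list was 18.5, 6.57, 6.06 and 29.4 in the combination samples. It was 8.17 to 9.67 in the controls, 1.04 to 1.83 with SB525334 and 2.46 to 6.71 with KN046. Of its 8 tested genes 2 were called higher and 0 lower. The origin of this RNA was not tested.

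**Figure D3:**
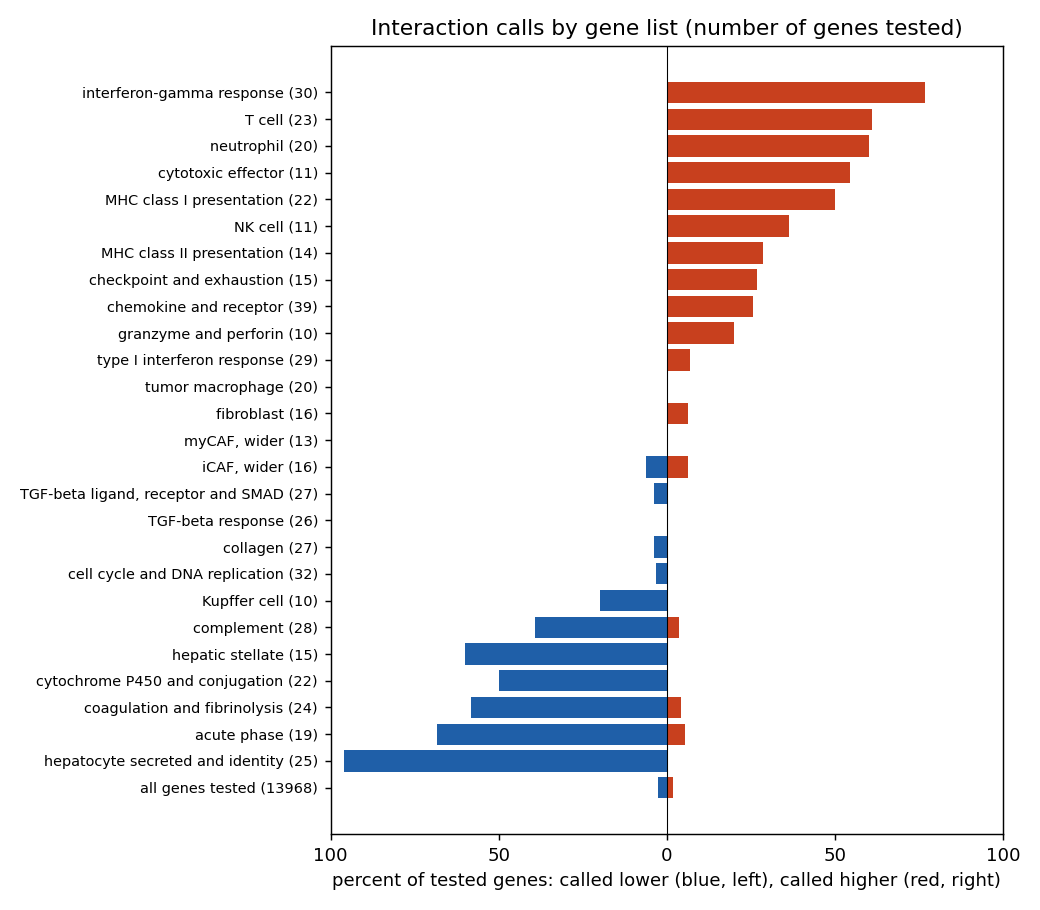
Percent of the tested genes of each list whose interaction was called higher (red, to the right) or lower (blue, to the left), with the number of genes tested in brackets and all 13968 genes as the lowest bar. Immune lists stand to the right, led by the interferon-γ response with 23 of 30 genes, and liver lists to the left, led by the hepatocyte list with 24 of 25.

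The plot of calls by gene list sets these groups beside the liver lists. Negative interactions were concentrated in genes of the liver. In the list of hepatocyte secreted and identity genes, 24 of 25 were called lower and none higher, with a median interaction of -6.15, or -6.05 with groups of at most 3 counts set at 3 counts. Their median difference from control was -3.43 after SB525334, -0.21 after KN046 and -9.80 after both. SB525334 alone was called lower in all 25, KN046 alone in none. The summed CPM of the list was 22159 to 27887 in the controls, 927 to 3164 with SB525334, 13370 to 27802 with KN046 and 78.4 to 99.0 in the combination, where Nr1i3, a nuclear receptor of drug metabolism, had 0 counts in every sample. Over the 356 genes called lower, SB525334 alone was called lower in 283, against 9.22% of all genes tested. KN046 alone was called lower in 1, against 2.40%, and the combination in 313, against 9.74%. The combination was also lower than KN046 alone in 351, against 14.5%, and lower than SB525334 alone in 299, against 3.03%. These counts come from the samples that define the interaction and describe it rather than test it.

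Igfbp1, an insulin-like growth factor-binding protein secreted by hepatocytes, had the lowest p of all interactions. It was at 71.5, 70.6, 82.7 and 76.2 CPM in the controls and 10, 9.67, 11.9 and 8.79 with SB525334. With KN046 it was at 104, 164, 226 and 148, and in the combination at 0.154, 0.386, 0.109 and 0.0471. No sample of 1 group overlapped another group: KN046 was highest, then control, then SB525334, then the combination. The interaction was -6.94 ± 0.40 (adjusted p = 3.73e-08, edgeR), made of -2.90 for SB525334 without KN046 and -9.84 for SB525334 with it. Multiplied single-drug fold changes would have given 21.5 CPM, and the mean was 0.174.

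Gc, the vitamin D-binding protein, was at 937, 950.0, 1065 and 1065 CPM in the controls, 126, 144, 91.8 and 61 with SB525334, 462, 1132, 818 and 670.5 with KN046 and 0.411, 0.607, 1.31 and 0.990 in the combination. KN046 overlapped control, SB525334 lay below both, and the combination lay below SB525334. Its interaction was -6.60 ± 0.46 (adjusted p = 3.01e-07, edgeR). Ambp, the precursor of the plasma proteinase inhibitor bikunin, had -6.50 ± 0.53 (adjusted p = 1.77e-06, edgeR), Ahsg, fetuin-A, -6.43 ± 0.50 (adjusted p = 1.28e-06, edgeR) and Hpx, the heme carrier hemopexin, -6.36 ± 0.56 (adjusted p = 3.21e-06, edgeR). Serpina1e, an α1-antitrypsin gene, had -7.01 ± 0.59, and Serpina3k and Serpina3m, both serpins of the α1-antichymotrypsin group, -6.52 ± 0.72 and -6.53 ± 0.78. The last 3 belong to clusters of close copies, and Serpina3k and Serpina3m also overlap on the genome, so that their separate values are uncertain.

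The promoters of 2 genes with negative interactions are printed to show a motif of the hepatocyte transcription factor HNF4A, from the same source and in the same form. Cyp3a11, a cytochrome P450 of drug oxidation, and Tlcd4 hold CAAAGTCCA, searched on both strands. CAAAGTCCA was in 2.62% of the 343 promoters of genes called lower, in 0.448% of those called higher, in 0.527% of all genes tested and in 0.475% of all promoters. Cyp3a11 is chr5:145879805-145880104, minus strand, with the match at -109. Tlcd4 is chr3:121263291-121263590, minus strand, with the match at -47.
Cyp3a11: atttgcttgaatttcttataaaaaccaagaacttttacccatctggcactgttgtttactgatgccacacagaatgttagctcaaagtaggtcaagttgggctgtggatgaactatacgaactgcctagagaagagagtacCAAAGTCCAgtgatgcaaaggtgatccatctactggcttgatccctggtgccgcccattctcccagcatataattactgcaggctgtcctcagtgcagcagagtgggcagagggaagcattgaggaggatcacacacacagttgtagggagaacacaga
Tlcd4: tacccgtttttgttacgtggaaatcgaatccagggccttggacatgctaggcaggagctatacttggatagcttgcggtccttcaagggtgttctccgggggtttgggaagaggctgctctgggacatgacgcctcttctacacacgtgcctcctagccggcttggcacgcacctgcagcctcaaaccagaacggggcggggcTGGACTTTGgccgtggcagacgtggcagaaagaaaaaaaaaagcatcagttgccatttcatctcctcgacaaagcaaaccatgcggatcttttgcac

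The other functions of hepatocytes showed the same direction. In the acute phase list 13 of 19 genes were called lower, in the coagulation and fibrinolysis list 14 of 24, in the complement list 11 of 28, in the cytochrome P450 and conjugation list 11 of 22, in the bile acid and liver transport list 8 of 15 and in the urea cycle and amino acid breakdown list 8 of 20. The transport count was 3 without combination sample 4 and the P450 count 7, and the urea cycle count 5 without combination sample 3. Among these lists, 1 gene each of the acute phase, coagulation and complement lists was called higher. Fga and Fgb, chains of fibrinogen, had -6.55 ± 0.65 (adjusted p = 9.18e-06, edgeR) and -6.54 ± 0.64 (adjusted p = 7.53e-06, edgeR). F2, prothrombin, was at 205, 206, 297 and 290.1 CPM in the controls, 22.4, 30.9, 21.3 and 8.01 with SB525334, 99.8, 252, 192 and 180.2 with KN046 and 0.359, 0.276, 0.437 and 0.236 in the combination. KN046 overlapped control, every SB525334 sample lay below both, and every combination sample lay below SB525334. Its interaction was -5.50 ± 0.59 (adjusted p = 2.1e-05, edgeR). Cfi, complement factor I, had -5.97 ± 0.72 (adjusted p = 6.7e-05, edgeR), and Cyp2e1, an ethanol-oxidising P450, -5.18 ± 1.02 (adjusted p = 0.00616, edgeR). Cps1, the entry enzyme of the urea cycle, had -5.79 ± 0.92 (adjusted p = 0.001, edgeR), and Slc38a4, an amino acid transporter, -2.56 ± 0.52 (adjusted p = 0.00729, edgeR). Serpina3n, an acute phase serpin that is also made outside the liver, kept 8.63, 7.61, 6.66 and 10 CPM in the combination and had -3.46 ± 0.32 (adjusted p = 5.54e-06, edgeR).

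Genes with at most 3 counts in every sample of a group were counted apart, since a fitted fold against almost no counts depends on the fit. There were 422 such genes among those tested, and 177 were called, 14 higher and 163 lower. In all 163 the combination was the 1 group at this floor, so that the interaction is bounded from above by putting 3 counts in each combination sample, and all 163 bounds lay below 0. Apoc3, an apolipoprotein of triglyceride-rich particles, was at 131, 138, 151 and 152 CPM in the controls, 17.1, 24.9, 17.8 and 4.82 with SB525334, 57.6, 134, 131 and 158 with KN046 and 0.0513, 0.110, 0 and 0.141 in the combination, where the floor corresponds to 0.156 CPM. Its interaction was at most -6.44. The bound was at most -5.18 for C4bp, a complement regulator, -4.85 for Itih1, an inter-α-trypsin inhibitor chain, -5.14 for Rdh7, a retinol dehydrogenase, and -4.14 for C8a, a chain of the membrane attack complex. Of the 14 called higher, 12 had a lower bound above 0. Elane, neutrophil elastase, was at least 8.66, and Cxcl13, a B cell chemokine, at least 4.88, with combination samples at 0.359, 0.110, 0 and 4.43 and 0.359, 0.0552, 0.0546 and 3.02 CPM. Sample 4 set both means, and without it the bounds were 5.70 and 2.40, while the fitted call of Cxcl13 passed narrowly (adjusted p = 0.0494, edgeR). Without that sample 8 of the 12 bounds stayed above 0, and in the other 4 genes the combination was then at the floor too, so that no bound could be set. For Nr5a1, a steroidogenic factor, which had at most 0.131 CPM in the other 3 groups and 2.62, 2.54, 1.53 and 3.02 CPM in the combination, no bound could be set. Its call was lost without control sample 1 (adjusted p = 0.978, edgeR). Away from the floor, 228 genes were called higher and 193 lower.

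**Figure D4:**
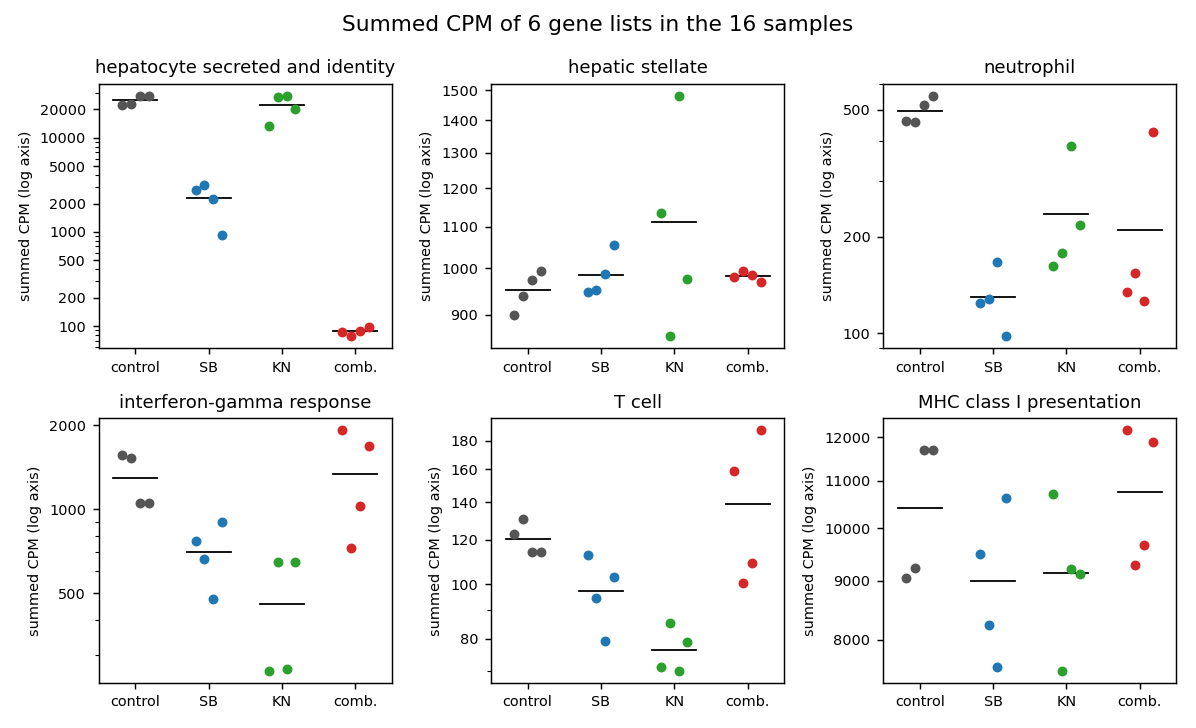
Summed CPM of 6 gene lists on log axes, 1 point for each sample and a bar at the group mean. The hepatocyte sum is 78.4 to 99.0 in the combination against 22159 or more in the controls, the neutrophil sum of the combination reaches 426 in 1 sample only, and the interferon-γ and T cell sums are lowest with KN046.

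The summed levels by sample, plotted for 6 lists, place the negative interactions beside the hepatocyte RNA. A hepatocyte score, the mean log2(CPM + 1) of the hepatocyte list, lay at 8.20 to 8.53 in the controls, 3.79 to 5.56 with SB525334, 7.35 to 8.55 with KN046 and 0.844 to 1.01 in the combination. Of the 356 genes called lower, 307 had a Pearson r of 0.8 or more with this score over the 16 samples, against 6.01% of all genes tested, and of the 242 called higher 0 had. The genes correlated include the 25 that make up the score, of which 24 are among the 356. These correlations share the groups, which account for an r-squared of 0.981 of the score. The part of the hepatocyte content in the interactions was not tested.

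Other liver cell types had negative interactions in some members. In the hepatic stellate list 9 of 15 genes were called lower and none higher, with a median of -1.33, although the summed CPM of the list was 901 to 994 in the controls and 970 to 994 in the combination. Reln, a glycoprotein of stellate cells and lymphatic endothelium, was at 13.6, 15.6, 7.96 and 8.88 CPM in the controls, 5.15, 4.22, 5.08 and 7.37 with SB525334, 11.2, 21.1, 38.1 and 15.8 with KN046 and 0.0513, 0.0552, 0 and 0.518 in the combination. Combination samples were near 0 and below every other sample, and SB525334 samples were below every control. The interaction was -5.89 ± 0.73 (adjusted p = 9.34e-05, edgeR). Colec11, a collectin, had -4.35 ± 0.77 (adjusted p = 0.00269, edgeR), and Lrat, which stores retinol as its ester, was at most -3.07. Of the Kupffer cell list 2 of 10 were called lower: Vsig4, a complement receptor, with -4.13 ± 0.71 (adjusted p = 0.00217, edgeR), and Clec4f, a lectin, at most -4.79, a call that held in 13 of 16 fits that left out 1 sample. The median of the Kupffer cell list was -0.23, with 5 estimates above 0 and 5 below. In the sinusoidal endothelial list 2 of 13 genes tested were called lower. Its median was -0.47, with 5 estimates above 0 and 8 below. Lyve1, the hyaluronan receptor of sinusoidal and lymphatic endothelium, had -5.29 ± 0.66 (adjusted p = 9.24e-05, edgeR) with KN046 samples at 42, 22.3, 35 and 25.9 CPM against 18.1, 16.2, 7.86 and 8.05 in the controls. The epithelial keratins Krt8 and Krt18, which hepatocytes also make, had -5.63 ± 0.69 and -5.11 ± 0.56 (adjusted p = 7.66e-05 and 2.73e-05, edgeR).

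Among the 49 genes called lower that did not follow the hepatocyte score, the KN046 estimate was above 0 in 48. In 39 KN046 alone was called higher than control, against 1.60% of all genes tested. KN046 enters the contrast with a minus sign, so these counts describe how the genes were picked and test nothing. The combination was within 2-fold of control in 44 of the 49, a share close to the 89.0% of all genes tested. The interaction was smaller than 2 in size in 43, and the share of all genes with so small an interaction was not counted. Cirbp, a cold-inducible RNA-binding protein, was at 31.5, 30.7, 21.3 and 21.4 CPM in the controls, 30.6, 29.3, 27.5 and 23.1 with SB525334, 139, 56.5, 100.5 and 83.9 with KN046 and 43.6, 44, 32.2 and 36.7 in the combination. Every KN046 sample lay above every other sample, and every combination sample lay above every control and SB525334 sample. The interaction was -1.35 ± 0.30 (adjusted p = 0.0143, edgeR). Ankrd28, a phosphatase scaffold, was at 95.7, 97.4, 79.7 and 74.8 CPM in the controls, 104, 113, 119 and 112 with SB525334, 196, 135, 144 and 157 with KN046 and 122, 107, 117 and 98.9 in the combination. KN046 samples were again highest without overlap. Its interaction was -0.87 ± 0.17 (adjusted p = 0.00536, edgeR). Srsf5, a splicing factor, had -0.95 ± 0.25 (adjusted p = 0.0419, edgeR), and Tfrc, the transferrin receptor, -1.24 ± 0.32 (adjusted p = 0.0361, edgeR), calls that held in 6 and 7 of 16 fits that left out 1 sample. Cplx2, a regulator of vesicle fusion, had -0.96 ± 0.21 (adjusted p = 0.0107, edgeR), and Slc43a3, a purine base transporter, -0.87 ± 0.22 (adjusted p = 0.0341, edgeR), the latter a call that held in 5 of 16 such fits.

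Whether drugs add depends on the scale. On the linear scale, the sum of 2 losses from a control level can pass below 0, which no expression value can follow. All 242 genes with a positive log2 interaction also had a positive difference of mean CPM, 240 of them by more than 2 standard errors. Of the 356 with a negative log2 interaction, 184 had a positive difference of mean CPM and 172 a negative one, with 56 and 88 beyond 2 standard errors. For Gc the linear difference was 129 ± 146 CPM, and for Igfbp1 it was -95.2 ± 25.4 CPM. Over all genes tested the sign differed between the scales in 5.76%. The count of 184 was 115 without control samples 3 and 4.

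**Figure D5:**
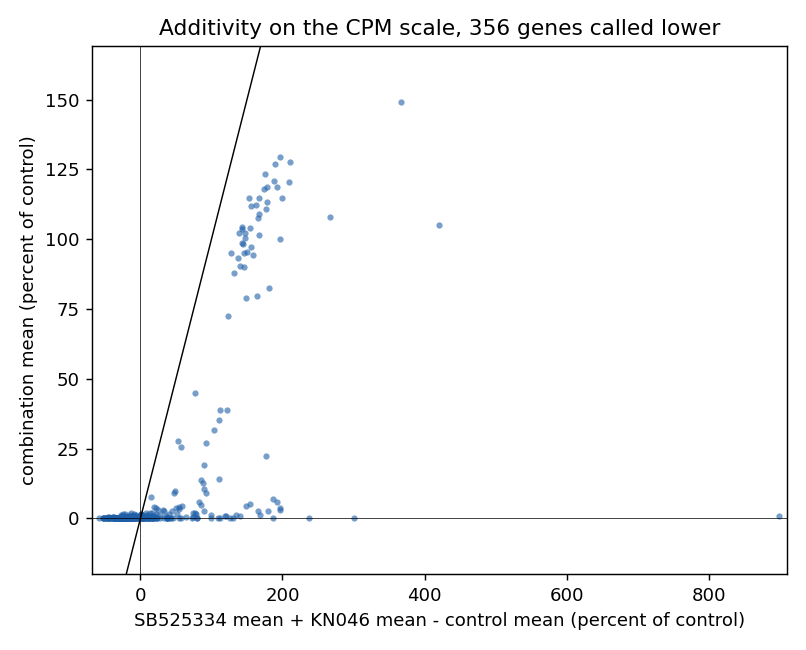
For the 356 genes called lower, the combination mean (vertical axis) against the SB525334 mean plus the KN046 mean minus the control mean (horizontal axis), both as percent of the control mean. On the black line the mean CPM values add. The 184 genes to the left of the line have a positive linear difference, and most genes have a combination mean near 0.

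The plot of additivity on the CPM scale shows these 356 genes. Those with a positive linear difference lie where the linear expectation is close to 0 or below it. Igfbp1 and Cirbp had a negative value on both scales, -57.2 ± 17.8 CPM for Cirbp.

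For lists tied to the SB525334 target, the counts of calls were set beside the 4.28% of all genes called. Of the 27 genes of TGF-β ligands, receptors and SMADs, 1 was called lower and none higher, and of the 26 TGF-β response genes 0 were called, with 13 estimates above 0 and 13 below. At an unadjusted p under 0.05 edgeR gave 4 of these 26 higher and 2 lower, and DESeq2 called 1 in each direction. The 1 gene was Ltbp4, a latent TGF-β-binding protein, which was at 915, 973, 891 and 926 CPM in the controls, 1209.8, 1085, 1060.2 and 1234 with SB525334, 1776, 1051, 1598 and 1288 with KN046 and 1182, 991, 1043 and 983 in the combination. Every control sample lay below every other sample, and the combination overlapped both single-drug groups. Its interaction was -0.75 ± 0.20 (adjusted p = 0.0352, edgeR), a call that held in 6 of 16 fits that left out 1 sample. Of 27 collagen genes 1 was called lower, Col14a1, with -1.59 ± 0.31 (adjusted p = 0.00634, edgeR) and 12.8, 8.0, 14.7 and 15.6 CPM in the combination against 51.2, 51.5, 44.2 and 43.6 in the controls. Of 16 fibroblast genes 1 was called higher, Thy1, which T cells also express, with 1.36 ± 0.31 (adjusted p = 0.0184, edgeR). Of 13 genes of myofibroblastic fibroblasts and 20 of tumor macrophages, edgeR called 0. At an unadjusted p under 0.05 it gave 1 higher and 2 lower for the first and 4 higher for the second, and DESeq2 called 1 and 0. Acta2, the smooth muscle actin of myofibroblasts, had -0.07 ± 0.41 (adjusted p = 0.956, edgeR), Fap, a fibroblast protease, 0.29 ± 0.64 (adjusted p = 0.861, edgeR) and Pdgfra, a platelet-derived growth factor receptor, -0.40 ± 0.20 (adjusted p = 0.345, edgeR).

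The gene groups that the study displays for these libraries were also counted, and since they were chosen on the same samples they are not independent evidence. Of its 10 fibroblast genes 1 was called lower, Col14a1, and none higher. Of its 17 immune genes that were tested, 4 were called higher: Gzmb, Cd8a, Cd8b1 and H2-DMb1, an MHC class II chaperone with 0.83 ± 0.22 (adjusted p = 0.0393, edgeR), whose call held in 4 of 16 fits that left out 1 sample. Of 32 cell cycle genes 1 was called lower, Foxm1, a transcription factor of mitotic genes, with -0.43 ± 0.11 (adjusted p = 0.0341, edgeR). That call held in 4 of 16 fits that left out 1 sample. Of the oxidative phosphorylation (31 tested), cytosolic ribosomal protein (35) and glycolysis and hypoxia (26) lists, edgeR called 0 genes. At an unadjusted p under 0.05 it gave 2, 0 and 3 of them, against 2321 of all genes tested, and DESeq2 called 0, 0 and 1.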

How the data were processed

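RNA-seq was measured in 16 tumor samples, 4 in each of 4 groups taken from the labels. The authors trimmed reads with Cutadapt 2.7, aligned them with HISAT2 2.2.1 and counted them per gene with HTSeq 2.0.4, per the paper's methods and the submitters' processing notes. The strand setting and the treatment of reads with several alignments are not given in the sources used here, so overlapping genes and close copies are uncertain. The deposited raw files hold whole-number counts. The deposited normalized files hold counts that the authors divided by a size factor of DESeq2 1.38.3 and rounded, which were treated as a score, and 100% of the values checked were at most 1 away from counts over size factor. GENCODE M39 holds 21770 of the 21959 gene identifiers, and no sample had a read for 4057 genes.

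For the interaction, edgeR 4.0.16 (R 4.3.3) was run on the deposited counts, with genes kept by filterByExpr (at least 10 counts), libraries scaled by TMM, 1 quasi-likelihood model of all 4 groups (biological coefficient of variation 20.1%) and Benjamini-Hochberg adjustment over the 13968 genes tested, with a threshold of 0.05. The contrasts of single drugs and combination came from the same fit and share the control samples. Values are TMM-scaled CPM, and errors of interactions are standard errors. A group with at most 3 counts of a gene in every sample was put at 3 counts per sample to give a bound, which covers counting error only. The shape of an interaction compares the combination effect with the sum of the single-drug effects. On simulated counts, the fit recovered 157 of 200 interactions of 4-fold (78.5%) and called 8 unchanged genes.

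Named genes were called genes of largest interaction in each direction, over all genes and among those with a hepatocyte score r under 0.8 in size, called genes at the floor of highest level, called genes of the opposite shape, up to 3 called members of lowest p for each list, and the drug targets and proteins the study stained. Genes first met in a list of marker genes, and Cd79a, were named after their values were seen. Some genes that this rule takes are not reported here. The members, lists and tests were chosen with earlier results of these data known. Alternatives were DESeq2 1.42.0, limma 3.58.1 on log2(normalized value + 1), other scalings and filters, the unadjusted p with 2-fold threshold of the study, a replicate block, merged control pairs, the hepatocyte score as covariate, and each sample left out. Promoters were taken from RefSeq on GRCm38.p6.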

Additional observations from a re-analysis of the deposited data

Results flagged for a closer look

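A sample was flagged where its gap to the nearest of the other 3 samples of its group passed Dixon's 95% value. Chance flags about 1 in 20 groups. Among the named genes, 24 of 429 gene and group sets were flagged where chance alone gives 21.4, and among the list sums 9 of 232, where it gives 11.6. Of these 33 flags, 12 were high values of combination sample 4.

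In combination sample 4 the neutrophil genes stood far above the other 3 combination samples. The values were 78.2 CPM for Ngp, 27.5 CPM for Ltf, 20.9 CPM for Camp, 5.33 CPM for Mpo, 2.26 CPM for Ctsg, 4.43 CPM for Elane, 4.38 CPM for Cd177, 47.2 CPM for S100a8 and 81.3 CPM for S100a9, and the neutrophil sum was 426 CPM against 126 to 154. The same sample was high for Jchain at 67.2 CPM and Cxcl13 at 3.02 CPM. Without this sample the interaction of Ctsg was 6.0 (adjusted p = 0.00314, edgeR), and those of the other genes, or their bounds, are given above. The cause was not tested.

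Other flags were single values. In SB525334 sample 3, S100a8 was high at 2.58 CPM and S100a9 at 6.71 CPM. In SB525334 sample 4, Mmp3 was high at 1.51 CPM and Ctla4 at 1.25 CPM, and Krt18 was low at 8.79 CPM. Mmp13 was low at 3.54 CPM in SB525334 sample 2, and Jchain was high at 5.47 CPM in SB525334 sample 1 and at 2.65 CPM in KN046 sample 4. In KN046 sample 2, Cldn3 was high at 19.5 CPM and Herc6 at 7.83 CPM. Ank2 was high at 49.0 CPM in combination sample 1, Ccr8 at 1.62 CPM in control sample 1 and Ccl5 at 11.5 CPM in control sample 2.

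Among the list sums, the inflammatory fibroblast list was high in SB525334 sample 1 at 919 CPM, the erythroid list in KN046 sample 3 at 327 CPM, the splenic stroma list in KN046 sample 2 at 6.71 CPM and the epithelial list in combination sample 2 at 6429 CPM. The mesothelial list was low in combination sample 3 at 176 CPM, the acute phase list in the same sample at 216 CPM, the cell cycle list in combination sample 1 at 5189 CPM and the pancreas list in control sample 1 at 10.8 CPM.

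By its interaction term, the SB525334 effect in the presence of KN046 was above that in its absence in 242 genes and under it in 356.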

How the results depend on the processing

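DESeq2 called 401 genes higher and 550 lower, and the study's thresholds (unadjusted p under 0.05 and a 2-fold change) gave 525 and 592, among them 197 and 316 of the calls by adjusted p. Merging each control pair, which leaves 2 control samples, gave 93 and 205. With the hepatocyte score as covariate the counts were 1 and 7, where the groups already account for an r-squared of 0.981 of the score and the fit can hardly separate the 2. The fits without control samples 1 and 2 or without 3 and 4 were added after seeing the data.

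Calls at the floor were 304 under the study's thresholds, 105 with merged controls and 1 with the covariate. Genes called higher with a combination effect beyond the sum numbered 3 by DESeq2, 2 by limma, 4 under the study's thresholds, 1 with the covariate and 1 without control samples 1 and 2. Those of opposite sign numbered 213 by DESeq2, 253 under the study's thresholds, 54 with merged controls, 0 with the covariate, 72 without control samples 1 and 2 and 68 without 3 and 4. Genes called lower beyond the sum numbered 497 under the study's thresholds, 199 with merged controls and 6 with the covariate, and those of positive CPM-scale difference 298, 120 and 4, and 115 without control samples 3 and 4. With the covariate 3 hepatocyte, 0 stellate, 0 interferon-γ response, 0 T cell, 0 MHC class I and 0 neutrophil genes were called. With merged controls 5 stellate, 10 interferon-γ and 8 T cell genes were called, without control samples 1 and 2 there were 8 and 8 of the last 2 lists, without 3 and 4 there were 7 MHC class I genes, and the study's thresholds gave 22 T cell genes.

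With 1 sample left out, 128 to 462 genes were called higher and 249 to 482 lower. Calls at the floor were 130 to 205, genes higher beyond the sum 0 to 2, of opposite sign 58 to 203, lower beyond the sum 234 to 345 and of positive CPM-scale difference 136 to 213. The lists gave 23 to 24 hepatocyte, 6 to 9 stellate, 13 to 25 interferon-γ, 8 to 16 T cell, 9 to 12 MHC class I and 8 to 13 neutrophil genes.

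With the covariate the sign turned, without passing the threshold, for Itih1 (0.52), C8a (0.86), Cps1 (0.19), Hpd (1.64), Ces1c (1.73), Cyp2e1 (3.60), Slc38a4 (1.01), Clec4f (1.88) and Tnfrsf9 (-0.0042). No gene called in both fits changed sign under any setting. Between scalings, the median interaction shifted by under 0.1.

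Of 24 correlations of same-numbered samples, 12 were over 0.1, with a range from -0.512 to 0.561. They were not set beside samples of different numbers, so whether the replicate numbers pair the samples was not tested. With a replicate block 219 genes were called higher and 311 lower, 197 and 299 of them among the calls without the block.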
